A study of Homo sapiens with 6 samples.

Results

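The stress transcription factors DDIT3 (CHOP), ATF3, ATF4, ATF5, CEBPB and CEBPG were examined together with 4 genes that act beside them, TRIB3, NUPR1, PPP1R15A (GADD34) and CHAC1. Members were all probe sets of a human oligonucleotide array whose platform annotation gives the symbol of one of these 10 genes, or its older alias. This gave 13 probe sets out of 22215 tested, for 10 genes out of 11963. ATF5 had 3 probe sets, PPP1R15A had 2 and each other gene had 1. RNA came from the human neuroblastoma line SH-SY5Y, which stands in for neurons, kept for 4 h in medium with free bilirubin at 140 nM (Bf 140 nM, 3 arrays) or in medium with DMSO 0.6% (3 arrays). DMSO is the solvent of the unconjugated bilirubin (UCB), so both groups were exposed to it. Flasks were separate for each treatment, and the labels speak of independent biological replicates. SH-SY5Y is a tumour line of a single origin.

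These genes belong to the integrated stress response. When misfolded proteins collect in the endoplasmic reticulum (ER), or when amino acids, heme or other needs run short, a sensor kinase phosphorylates the initiation factor eIF2, general translation slows, and the ATF4 messenger is translated more. ATF4 pairs with CEBPB or CEBPG through leucine zippers, binds composite C/EBP-ATF elements and drives DDIT3, ATF3, TRIB3 and CHAC1. DDIT3 in turn drives PPP1R15A, which leads a phosphatase back to eIF2, and can favour cell death when stress lasts. In neuronal cells the pathway is studied as a marker of ER stress, and ATF4 itself is set largely at translation, which an array does not measure.

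Sequence of the region around the start of transcription was taken from RefSeq (GRCh38.p14), in windows of 300 bases that run from 250 bases before the start to 50 after it. Of the 10 genes 9 had a window, and there were 18 windows in all because several genes have more than 1 start. NUPR1 had none. Motifs were searched on both strands. The C/EBP-ATF element was written as TGATGNAA, the cyclic AMP response element (CRE) as TGACGTCA, the AP-1 site as TGANTCA, a C/EBP palindrome as TTGCGCAA, the CCAAT box as CCAAT and the TATA box as TATAAA. The ER stress element was searched as a CCAAT box set apart from CCACG by a fixed gap, so it contains a CCAAT box. The windows of 4 genes are shown, DDIT3 because it was the member whose groups did not overlap, and CHAC1, CEBPG and ATF3 because they hold the C/EBP-ATF letters that the factors of this set can bind. DDIT3, CEBPG and ATF3 had 2 windows each. Of these the one with the most C/EBP-ATF, CRE and AP-1 matches is shown, with ties settled by position. The windows shown were thus picked for their matches. Capitals mark every motif match.
DDIT3 (chr12:57520465-57520764, minus strand): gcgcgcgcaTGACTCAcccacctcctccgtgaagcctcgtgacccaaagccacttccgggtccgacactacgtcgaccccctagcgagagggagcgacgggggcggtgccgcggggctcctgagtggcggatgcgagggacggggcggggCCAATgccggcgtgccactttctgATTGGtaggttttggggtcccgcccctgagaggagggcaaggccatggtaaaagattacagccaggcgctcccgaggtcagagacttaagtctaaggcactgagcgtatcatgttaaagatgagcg
CHAC1 (chr15:40953221-40953520, plus strand): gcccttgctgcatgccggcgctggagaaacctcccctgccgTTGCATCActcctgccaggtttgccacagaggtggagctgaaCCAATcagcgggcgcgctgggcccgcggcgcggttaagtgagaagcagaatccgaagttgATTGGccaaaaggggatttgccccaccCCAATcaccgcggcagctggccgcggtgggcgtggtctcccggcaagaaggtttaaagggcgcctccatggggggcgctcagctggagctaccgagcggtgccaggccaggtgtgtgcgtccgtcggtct
CEBPG (chr19:33373863-33374162, plus strand): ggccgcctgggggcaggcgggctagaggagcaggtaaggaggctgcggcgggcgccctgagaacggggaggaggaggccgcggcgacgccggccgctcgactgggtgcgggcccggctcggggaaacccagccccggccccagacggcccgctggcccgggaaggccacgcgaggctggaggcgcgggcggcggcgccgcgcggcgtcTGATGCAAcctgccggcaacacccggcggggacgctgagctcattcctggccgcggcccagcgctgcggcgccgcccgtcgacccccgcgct
ATF3 (chr1:212565157-212565456, plus strand): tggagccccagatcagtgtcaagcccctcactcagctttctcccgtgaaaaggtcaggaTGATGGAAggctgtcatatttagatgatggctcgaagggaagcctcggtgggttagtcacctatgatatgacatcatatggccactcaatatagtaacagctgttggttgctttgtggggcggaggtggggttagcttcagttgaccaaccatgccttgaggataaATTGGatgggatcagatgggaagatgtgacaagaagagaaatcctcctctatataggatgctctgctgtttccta

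The C/EBP-ATF letters stood at 209 bases before the start in CHAC1 (on the minus strand), 42 before it in CEBPG and 191 before it in ATF3. They were found in 3 of the 18 member windows, and in 3.62% of all 35116 windows of the same length. The DDIT3 window shown held an AP-1 match at 241 bases before the start and CCAAT boxes on opposite strands at 100 and 76. ATF5 was the other gene with an AP-1 match. AP-1 matches occurred in 3 of the 18 member windows and 7.71% of all windows. A CRE was found in 1 of the 18 member windows, that of PPP1R15A at 58 bases before the start, and in 1.85% of all windows. The ER stress element and the C/EBP palindrome had no exact match in the 18 windows. Exact matches of these motifs occurred in 0.0769% and 0.151% of all windows. Near matches were not counted, so this does not show that such elements are absent. In the DDIT3 window shown, both CCAAT boxes stand at the fixed gap from letters that differ from the searched ones by 1 base. CCAAT boxes were found in 7 of the 18 member windows and 34.6% of all windows, and TATA boxes in 5 of the 18 and 11.5% of all. A match describes the letters in the window and is not a binding site shown by these arrays.

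Values are normalised levels on a log2 scale as deposited, and differences are Bf 140 nM minus DMSO 0.6%. Levels of the array's other probe sets give each member a percentile of brightness. Brightness depends on the probes as well as on the messenger, so these ranks do not order the genes by abundance. ATF4, the central factor of the response, was the brightest member in both groups, between the 91.4 and 95.6 percentiles of the 6 arrays. CEBPB, a C/EBP factor that also serves inflammation and differentiation, followed at 75.2 to 82.6. TRIB3, a pseudokinase that binds ATF4 and DDIT3 and dampens them, stood at 67.7 to 71.9, CEBPG, a short C/EBP partner of ATF4, at 61.7 to 66.5, and DDIT3 at 57.5 to 65.1. The brighter probe set of PPP1R15A lay between 55.7 and 65.6, the stress-induced repressor ATF3 between 57.0 and 63.3, and the brightest ATF5 probe set between 53.8 and 60.2. CHAC1, an enzyme that degrades glutathione, lay near the middle at 43.0 to 51.1. NUPR1, a small chromatin protein of stressed cells, was the dimmest at 26.2 to 33.9. Variance stabilisation compresses differences of dim probe sets, by an amount that was not measured here.

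**Figure D1:**
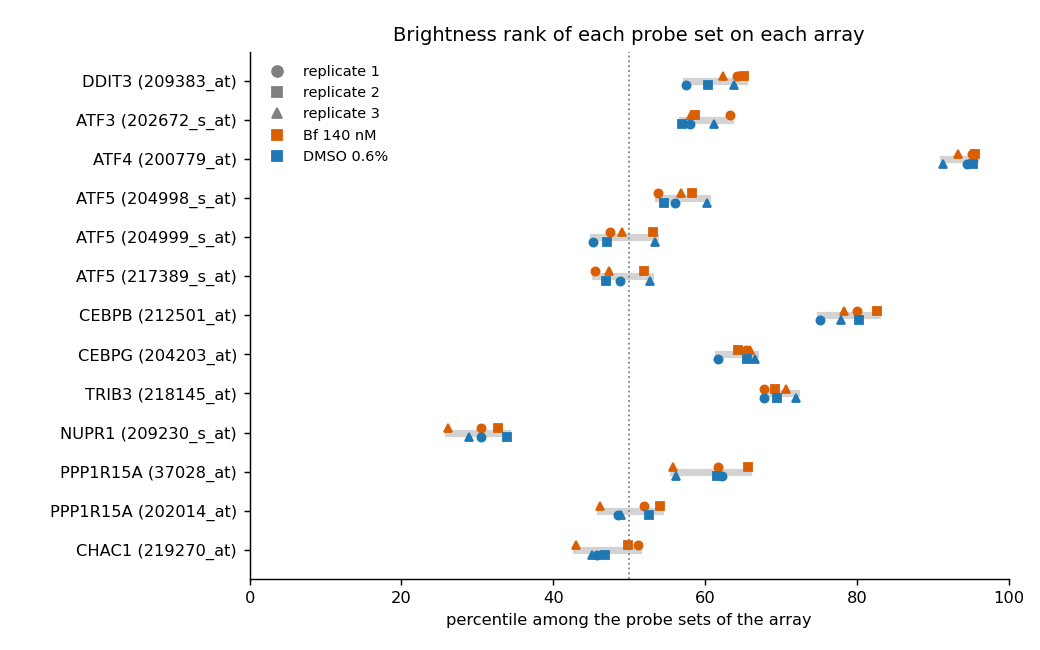
Percentile of each of the 13 probe sets among the 22215 probe sets of the array (x axis, percent), with Bf 140 nM in orange, DMSO 0.6% in blue, marker shapes for the replicate number and grey bars from lowest to highest. ATF4 stays above the 91 percentile on every array, and NUPR1 stays below the 34 percentile.

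Facts of the arrays bear on what follows. The median level was 7.85 on DMSO replicate 3 and 7.94 or more on the other arrays. Beta-actin probe sets at the 3' end exceeded those at the 5' end by 2.21 on that array, and by 0.10 to 0.89 on the other 5. For GAPDH the same gap was 1.30, and 0.10 to 0.38 elsewhere. Such a gap widens when RNA is less intact. Of 12 measured noradrenergic neuroblast markers, 10 lay above the 92 percentile, among them DBH and GATA3, while tyrosine hydroxylase (TH) stood at the 12.3 percentile and HAND2 at 46.1. The 11 measured mesenchymal or Schwann-like markers had a median percentile of 53.3 to 59.9 per array, with COL3A1 at 85.3 and FN1 at 83.5. Their summed level (values back on the linear scale) ranged from 4331 to 5648 in Bf 140 nM and from 3954 to 5664 in DMSO 0.6%, and that of the noradrenergic markers from 43995 to 61273 and from 47752 to 54639. The part of these cell types in the differences below was not tested. In such bulk RNA, fewer cells that express a gene and less RNA per cell cannot be told apart.

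DDIT3 was the member that separated the groups. Its levels were 8.86, 8.80 and 8.72 in Bf 140 nM replicates 1, 2 and 3, and 8.42, 8.59 and 8.59 in DMSO 0.6%. All Bf 140 nM values lay above all DMSO 0.6% values, which was the case for 1 of 13 member probe sets and for 1.68% of all probe sets (0.981% had all of them below, and 0 of 13 members). The difference was 0.26 (SE 0.10), with 0.44, 0.21 and 0.13 in pairs of replicates 1, 2 and 3. By limma the unadjusted p was 0.0321 and the adjusted p was 1.00, so the difference did not pass the threshold of 0.10 over all probe sets. With the replicate number as a block the unadjusted p was 0.0468, under 0.05 as for 0.414% of all probe sets, and the adjusted p again 1.00. The difference without DMSO replicate 3 was 0.29, and with any other array left out it lay between 0.21 and 0.30. The unadjusted p was above 0.05 without Bf 140 nM replicate 1 (0.116) or 2 (0.0510) and without DMSO replicate 1 (0.126) or 2 (0.0555).

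CEBPB had the next difference, 0.26 (SE 0.13), and a different arrangement of arrays. Its levels were 9.95, 9.93 and 9.85 in Bf 140 nM, and 9.51, 9.91 and 9.53 in DMSO 0.6%. The Bf 140 nM arrays lay close together (SD 0.05, n = 3), while DMSO replicate 2 stood among them and apart from its own group (SD 0.23, n = 3). The pairs differed by 0.44, 0.02 and 0.31, and the difference without DMSO replicate 2 was 0.39. By limma the unadjusted p was 0.0907 and the adjusted p 1.00, and without DMSO replicate 2 the unadjusted p was 0.0138 with an adjusted p still above 0.10. In that setting 105 of the 22215 probe sets had an unadjusted p under 0.05. With any other array left out the difference of CEBPB lay between 0.18 and 0.29. Its unadjusted p by limma then lay between 0.111 and 0.264.

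ATF4 differed by 0.20 (SE 0.20). Its levels were 11.73, 11.60 and 11.46 in Bf 140 nM, and 11.51, 11.75 and 10.94 in DMSO 0.6%. The lowest value was that of DMSO replicate 3, the array with the beta-actin gap of 2.21, and the other 5 arrays overlapped. Pairs 1, 2 and 3 had 0.21, -0.14 and 0.52. Without DMSO replicate 3 the difference was -0.03, so its sign rested on that array, and without DMSO replicate 2 it was 0.37. The 95% interval of the fold ran from 0.824 to 1.60, the highest upper bound of the 13 probe sets, with an adjusted p of 1.00 by limma.

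ATF3 differed by 0.14 (SE 0.12) through a single array. Bf 140 nM replicate 1 stood at 8.81, while the other Bf 140 nM arrays were at 8.45 and 8.44 and the DMSO 0.6% arrays at 8.45, 8.39 and 8.44. Without Bf 140 nM replicate 1 the difference was 0.02. The same flask also gave the highest CHAC1, DDIT3 and CEBPB levels among the 6 arrays.

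**Figure D2:**
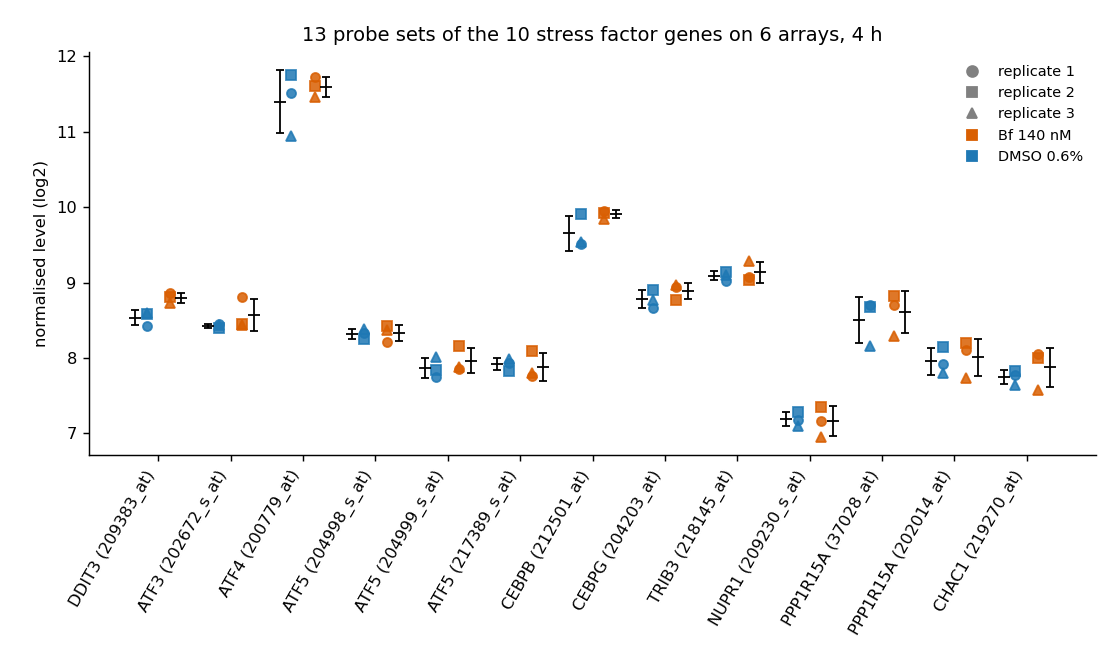
Normalised level (log2, y axis) of the 13 probe sets, 1 point an array, coloured orange (Bf 140 nM) or blue (DMSO 0.6%) and shaped by replicate number, with the mean and SD of each group in black. For DDIT3 the orange points (8.72 to 8.86) lie above the blue ones (8.42 to 8.59), and the groups overlap for each of the other 12 probe sets.

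The remaining transcription factors, CEBPG and ATF5, had pairs of both signs. CEBPG stood at 8.94, 8.76 and 8.96 in Bf 140 nM and at 8.67, 8.91 and 8.76 in DMSO 0.6%. Its pairs differed by 0.27, -0.14 and 0.20, and its mean difference was 0.11 (SE 0.11), between 0.053 without DMSO replicate 1 and 0.17 without DMSO replicate 2. ATF5, a relative of ATF4 that takes part in the mitochondrial stress response, had levels of 8.21, 8.43 and 8.36 against 8.33, 8.25 and 8.38 on its brightest probe set, a difference of 0.02 (SE 0.10). Its other probe sets differed by 0.10 and -0.03. All 3 probe sets were higher in Bf 140 nM in pair 2 (0.18, 0.32 and 0.27) and lower in pair 3 (-0.02, -0.13 and -0.19), while in pair 1 they disagreed (-0.11, 0.11 and -0.18).

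Among the genes that act on or beside these factors, TRIB3 stood at 9.08, 9.03 and 9.29 in Bf 140 nM and at 9.02, 9.15 and 9.11 in DMSO 0.6%, a difference of 0.04 (SE 0.11). NUPR1 had 7.17, 7.36 and 6.96 against 7.18, 7.29 and 7.10, a difference of -0.03 (SE 0.13) and the only negative one among the representative probe sets of the 10 genes. CHAC1 had 8.06, 7.99 and 7.58 against 7.78, 7.82 and 7.64, a difference of 0.13 (SE 0.15). Bf 140 nM replicates 1 and 2 of CHAC1 lay above all DMSO 0.6% arrays and replicate 3 below them. With 1 array left out its difference ran from 0.041 (without Bf 140 nM replicate 1) to 0.28 (without Bf 140 nM replicate 3, unadjusted p = 0.0457 by limma with an adjusted p above the threshold). It was 0.072 without Bf 140 nM replicate 2 and 0.077 without DMSO replicate 3.

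PPP1R15A was measured by a pair of probe sets that gave similar pictures. On the brighter one it stood at 8.71, 8.83 and 8.29 in Bf 140 nM and at 8.70, 8.67 and 8.16 in DMSO 0.6%, and on the dimmer one at 8.11, 8.19 and 7.73 against 7.92, 8.14 and 7.80. Both probe sets had their lowest value on replicate 3 in each group. The differences were 0.10 (SE 0.20) and 0.06 (SE 0.16). They shared the sign in pairs 1 and 2 and had 0.13 and -0.07 in pair 3. Without DMSO replicate 3 the brighter probe set had -0.08.

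**Figure D3:**
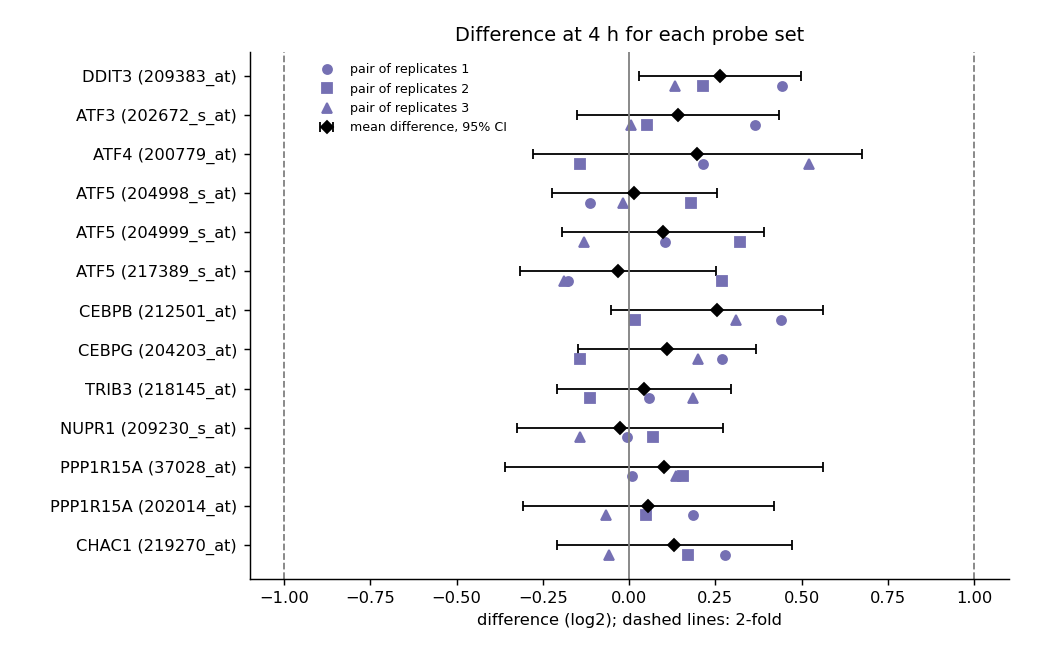
Bf 140 nM minus DMSO 0.6% (log2, x axis) for each probe set, with diamonds and bars for the mean difference and its 95% confidence interval and purple markers for the 3 same-numbered pairs. The interval of DDIT3 (0.03 to 0.50) lies above 0, the other 12 intervals include 0, and none reaches the dashed 2-fold lines.

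Over the whole set, 0 of 13 member probe sets passed an adjusted p of 0.10 by limma, as did 0% of the 22215 probe sets. At an unadjusted p under 0.05 there was 1 member, DDIT3, and 0.0765% of all probe sets. With the replicate block there was again 1 member, DDIT3, and 0.414% of all probe sets. Evenly spread p-values would give a share of 0.05, so the limma p-values of both fits ran high. A positive difference was found for 11 of 13 member probe sets and 63.2% of all probe sets. By gene it was 9 of 10 and 63.7%, and the median was 0.12 against 0.03 over all genes. With each array centred on its median these medians were 0.09 and -0.000928, and without DMSO replicate 3 they were 0.064 and 0.015, with 7 of 10 genes positive. In 4 of 13 probe sets, those of DDIT3, ATF3 and CEBPB and the brighter one of PPP1R15A, all 3 pairs were positive, where 8.96% of all probe sets were. The smallest of these pair differences were 0.0054 (ATF3, pair 3), 0.0088 (PPP1R15A, pair 1) and 0.017 (CEBPB, pair 2). The array medians of pair 3 were 7.94 in Bf 140 nM and 7.85 in DMSO 0.6%, and this count was not taken with each array centred. The pair medians over the 10 genes were 0.24, 0.06 and 0.13. No member was negative in all 3 pairs, where 4.70% of all probe sets were. The 95% intervals of 13 of 13 member probe sets excluded a 2-fold difference in both directions, and those of 12 excluded a 1.5-fold difference, ATF4 being the exception. Over all probe sets these shares were 97.8% and 85.7%. They hold on the stabilised scale and come from the fit without pairing. With the replicate block the SE of ATF4 was 0.14 in place of 0.20, and that of DDIT3 0.12 in place of 0.10. For comparison, the reference genes GAPDH and ACTB differed by 0.03 (SE 0.11) and -0.02 (SE 0.10).

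How much of the spread lay between replicate numbers rather than between treatments was described from the values once seen. For each probe set the range over the means of replicate numbers 1, 2 and 3 was set beside the treatment difference. Each mean joins both groups, so opposite trends within the groups cancel in this range. For DDIT3 this range was 0.05, against a difference of 0.26. CEBPB had 0.23 against 0.26 and CEBPG 0.06 against 0.11. These were the 3 of 13 member probe sets whose difference was larger than the range, as in 10.4% of all probe sets. The reverse was the case for PPP1R15A, with 0.52 against 0.10 on its brighter probe set, followed by ATF4 (0.47 against 0.20) and CHAC1 (0.31 against 0.13). The spread between pairs is not part of this range. Pair differences ran from 0.13 to 0.44 for DDIT3 and from -0.14 to 0.27 for CEBPG. Replicate 3 was the lowest array of both groups for 5 of 13 member probe sets, those of ATF4, NUPR1, CHAC1 and both of PPP1R15A, and for 24.1% of all probe sets. Replicate 3 of DMSO 0.6% is the array with the beta-actin gap of 2.21, and replicate 3 of Bf 140 nM had the next highest at 0.89. The part of RNA quality in this order was not tested.

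**Figure D4:**
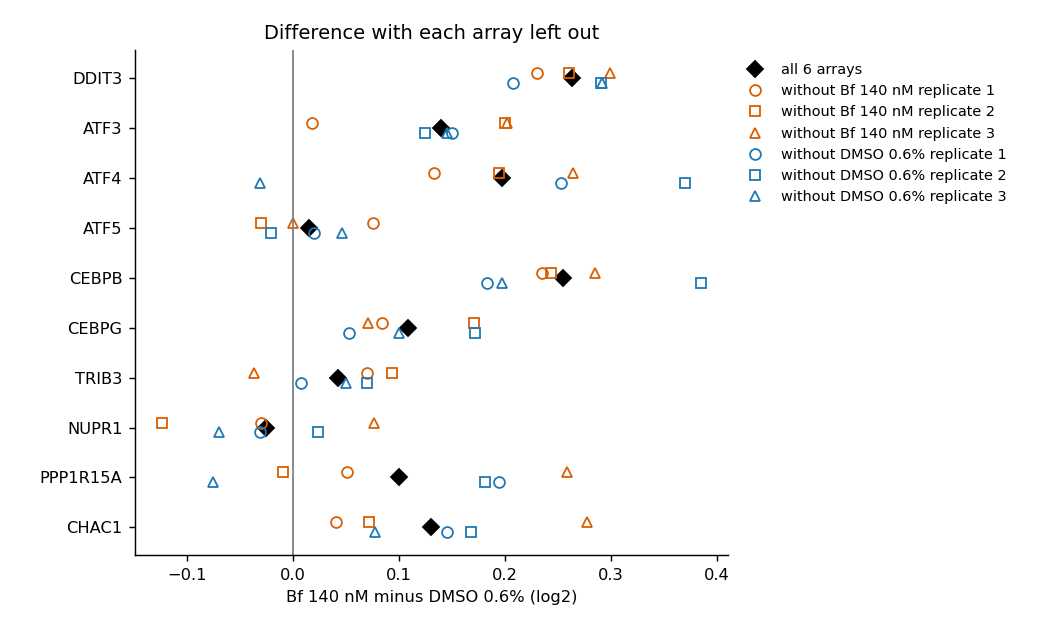
Difference of each gene's brightest probe set (log2, x axis) with all 6 arrays (black diamonds) and with 1 array left out (open markers, orange for Bf 140 nM, blue for DMSO 0.6%, shapes for the replicate number). DDIT3 stays between 0.21 and 0.30 and CEBPB between 0.18 and 0.39, while ATF4 ranges from -0.03 to 0.37 and ATF5, TRIB3, NUPR1 and PPP1R15A also cross 0.

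The other genes of the pathway were read from lists by role, 83 genes of which 75 were measured. None of the 75 passed the adjusted threshold in either direction by limma, and 0 had an unadjusted p under 0.05. With the replicate block 1 of the 75, DDIT4, had an unadjusted p under 0.05 (0.0322, adjusted p = 1.00 by limma). A positive difference was found for 56 of 75, with a median of 0.05, where 63.7% of all genes were positive with a median of 0.03. Without DMSO replicate 3 it was 48 of 75, and 6730 of the 11963 genes. Their pair medians were 0.12, -0.13 and 0.22, so pair 2, where the members had 0.06, was negative here.

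Upstream of ATF4, the 3 measured eIF2 kinases had differences of 0.04 to 0.13. EIF2AK1, the kinase that senses heme shortage, had levels of 11.87, 11.85 and 11.92 in Bf 140 nM and 11.76, 11.79 and 11.71 in DMSO 0.6%. Its groups did not overlap, with Bf 140 nM higher, as for 2 of the 75 pathway genes (the other was BATF3) and 220 of 11963 genes. The difference of EIF2AK1 was 0.13 (SE 0.09), with an adjusted p of 1.00 by limma. EIF2AK2, the kinase that senses double-stranded RNA, had 0.12 (SE 0.16), and EIF2AK3 (PERK), the sensor of ER stress, 0.04 (SE 0.17). The subunits of eIF2, eIF2B and the eIF2 phosphatase, with the kinase inhibitor DNAJC3, were positive in 12 of 12, with a median of 0.17 and with DNAJC3 at 0.24 (SE 0.14) and EIF2B1 at 0.22 (SE 0.16). Their pair medians were 0.13, -0.18 and 0.51, and without DMSO replicate 3 (beta-actin gap 2.21) the median was 0.06 with 8 of 12 positive. EIF2S3 was an extreme case, at 7.88 on that array and between 9.12 and 9.92 on the others.

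Leucine zipper partners and relatives of the members were split on their brightest probe sets, 9 positive and 9 negative out of 18, with a median of 0.01. The split depended on the setting. With the median over all probe sets of a gene 12 of 18 were positive (median 0.05), and with each array centred 6 of 18 (median -0.02). CREB1 had 0.21 (SE 0.13), with 0.29 to 0.35 on its other probe sets, and the repressor NFIL3 had 0.22 (SE 0.15). On the brightest probe sets the pairs had 0.18, -0.08 and 0.52 for CREB1, and 0.21, -0.04 and 0.49 for NFIL3. The C/EBP relatives CEBPA, CEBPD and CEBPE had 0.14, -0.03 and -0.0040. The TRIB3 relatives TRIB1 and TRIB2 had 0.11 (SE 0.18) and 0.09 (SE 0.19), and their median was -0.06 without DMSO replicate 3.

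Downstream, 14 of 16 amino acid and redox targets of ATF4 were positive, with a median of 0.07. This median was 0.13 with the median over all probe sets of a gene, and 0.04 with each array centred. Asparagine synthetase ASNS had 0.23 (SE 0.14) and SLC3A2, the heavy chain of amino acid exchangers, 0.19 (SE 0.17). Their pair medians were 0.10, -0.16 and 0.25, and without DMSO replicate 3 the list median was 0.01 with 9 of 16 positive. PSAT1, a serine synthesis enzyme, stood at 8.86 on that array and between 10.17 and 10.58 on the other 5. Of 9 mTORC1 and growth targets 5 were positive, with a median of 0.12 that was 0.010 without Bf 140 nM replicate 2, 0.028 without Bf 140 nM replicate 3 and 0.064 without DMSO replicate 3. DDIT4, an inhibitor of mTORC1, had 0.33 (SE 0.17) with 0.68, 0.13 and 0.17 in the pairs, and VEGFA 0.27 (SE 0.14). Of 8 aminoacyl-tRNA synthetases 5 were positive, with a median of 0.03 that ranged from -0.086 without Bf 140 nM replicate 3 to 0.16 without Bf 140 nM replicate 2, SARS1 at 0.13 (SE 0.13) and AARS1 at 0.08 (SE 0.15). In pairs 1, 2 and 3 SARS1 had 0.08, -0.10 and 0.40, and AARS1 had -0.05, -0.09 and 0.40. Of 7 genes listed as DDIT3 and cell death targets 6 were positive, with a median of 0.05. It ranged from 0.022 without Bf 140 nM replicate 3 to 0.24 without Bf 140 nM replicate 2, and was 0.11 without DMSO replicate 3. The list includes HERPUD1 and DNAJB9, which the study placed under degradation and folding in the ER. HERPUD1, a component of ER-associated degradation, and the growth arrest gene GADD45A both had 0.25 (SE 0.16 and 0.17). Their pairs had 0.34, -0.14 and 0.56 for HERPUD1, and 0.60, -0.06 and 0.22 for GADD45A. HERPUD1 stood at 9.83 on DMSO replicate 3 and between 10.15 and 10.49 on the other arrays. The range over replicate pairs exceeded these medians in each of the downstream lists.

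**Figure D5:**
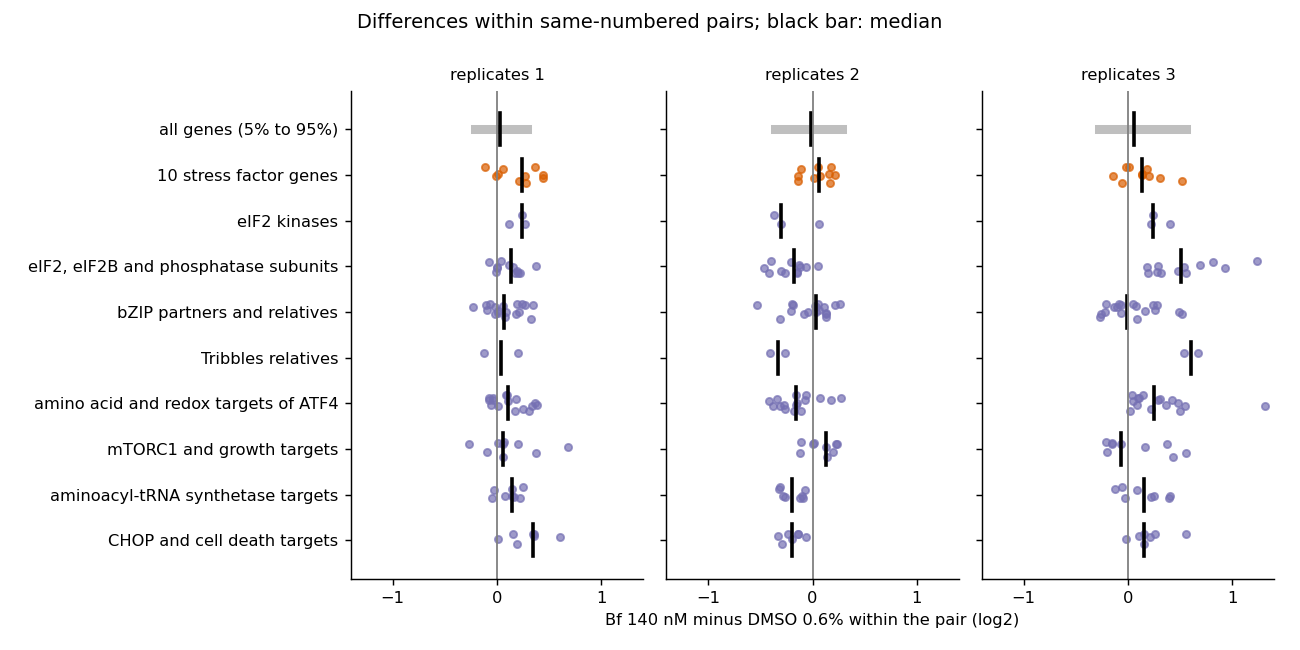
Bf 140 nM minus DMSO 0.6% within each pair of replicates (log2, x axis, 1 panel a pair) for the 10 stress factor genes in orange and the pathway lists in purple, 1 point a gene, black bars for medians and a grey bar for the 5% to 95% range of all genes. Medians of most pathway lists lie above 0 in panels 1 and 3 and below 0 in panel 2, where that of the 10 genes is 0.06.

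Genes whose levels ran most like those of DDIT3 were sought among 6847 genes above the median brightness, by Pearson correlation over the 6 arrays. The highest were WDR37 (r = 0.899), ZNF14 (0.895), KIAA0513 (0.893), the serine racemase SRR (0.892) and the autophagy factor UVRAG (0.890). ZNF14 had a difference of 0.20, KIAA0513 of 0.17 and UVRAG of 0.09. These are the highest of 6847 correlations over only 6 arrays, a choice that by itself gives high values, and shared regulation was not tested. With 6 arrays that share their replicate numbers, the likeness is a description of these arrays, and no other member was among the 5 genes.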

How the data were processed

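Labelled cRNA of 6 flasks was hybridised to Affymetrix human gene expression arrays. The authors computed cell intensities with GCOS and applied variance-stabilizing normalization (justvsn) in R version 2.5.0, so the deposited values are on a generalised log2 scale. The sources used here do not say how a probe set was summarised. The log base was settled from the highest value, 15.2, above the natural logarithm of the 16-bit limit (11.1) and below its log2 (16). Of 22277 probe sets 62 were controls. Of the 22215 tested, 19064 had 1 symbol, 1043 had several and 2108 had none. Only the first kind was named, with symbols checked through Entrez identifiers against RefSeq. For each gene the brightest probe set (by mean over 6 arrays) was taken. Detection calls were not used here. Arrays carry no read depth, and their number limits the precision.

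Groups were compared with limma (version 3.58.1, R version 4.3.3), in a two-sided test without pairing. P-values were adjusted after Benjamini and Hochberg over every tested probe set, with a threshold of 0.10, near the FDR of the study, which used SAM. Intervals are at 95%. The named pathway genes were the 2 of each list with the lowest unadjusted p, and other named ones were chosen after their values were seen. The members and lists were chosen with earlier results of these data known. Replicate numbers 1 to 3 are shared by the groups, and deviations of same-numbered arrays correlated at 0.60, 0.23 and 0.57, each above 0.1, so the numbers were taken to pair the arrays and the replicate block was run as an alternative. Other alternatives were quantile normalization, centring, gene medians, a filter on the mean, leaving out shared probe sets, a variance trend, robust shrinkage, a beta-actin covariate and leaving out each array or pair. The limma step was tested on simulated data.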

Additional observations from a re-analysis of the deposited data

How the results depend on the processing

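With 17 alternatives for each count, 0 member probe sets passed the threshold under any. The count over all probe sets was 0 under each except the replicate block without pair 3, with 2 (EIF4B and a probe set with no single symbol), where 0 members passed. The replicate block changed no other call, and moved the count at an unadjusted p under 0.05 from 17 to 92. It left the member median at 0.12, as it must when each replicate number has 1 array in each group. The member median with each array centred was 0.09. The unadjusted p of DDIT3 was above 0.05 with a mean-variance trend (0.0684), the filter on the mean (0.0748), quantile normalization (0.124), centring (0.0832) or the replicate block without pair 1 (0.414) or 2 (0.0555), and when any 1 of 4 arrays was left out, and ranged over 18 alternatives from 0.0250 to 0.414, with differences of 0.17 to 0.33. DDIT3, CEBPB and CEBPG stayed positive under 18 alternatives, ATF3 and CHAC1 under 17. Among these, the replicate block on all arrays, the variance trend and robust shrinkage cannot change a difference, so they say nothing about its sign. For a gene with 1 probe set, as each of these is, the same holds for gene medians, the filter on the mean and leaving out shared probe sets. The median of the 10 genes was 0.064 to 0.23 with each array left out, lowest without DMSO replicate 3 and highest without Bf 140 nM replicate 3, and that of the other pathway genes 0.04 to 0.14. With the replicate block the latter was -0.00062 without pair 3 (37 of 75 positive) and 0.17 without pair 2. Signs turned with quantile normalization for ATF5 (-0.036) and TRIB3 (-0.032), with centring for ATF5 (-0.017), with the replicate block without pair 2 for ATF5 (-0.066), with the block without pair 3 for TRIB3 (-0.029) and NUPR1 (0.032), and with the beta-actin covariate for PPP1R15A (-0.000186). With 1 array left out the differences ranged from -0.031 to 0.37 for ATF4, -0.030 to 0.076 for ATF5, -0.036 to 0.094 for TRIB3, -0.12 to 0.076 for NUPR1 and -0.076 to 0.26 for PPP1R15A. The cause of these turns was not tested. The 3 arrays a group limit what can be detected.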
